A study of Mus musculus with 2 samples.

Results

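The 10 genes described here encode proteoglycan core proteins (Dcn, Bgn, Lum, Fmod and Vcan) and enzymes that build or sulfate chondroitin sulfate chains (Csgalnact1, Csgalnact2, Chsy1, Chpf and Chst11). They were chosen by gene name, with earlier results of these data known. They are measured by 13 of the 43020 non-control spots of an Agilent single-colour mouse array, or 10 of the 29608 gene names on it. The study grew 661W, a line of mouse photoreceptor origin with features of cones, for 3 days in DMEM/F12 medium that either lacked or contained choline. The labels give its concentration as 8.98 g/L, which is high for a culture medium. Neither the value nor its unit could be checked here, so the true amount is uncertain. The labels' protocols give 1 growth medium with fetal bovine serum and antibiotics for both. Each condition is 1 array, and the design text mentions total RNA pooled over 4 dishes without saying whether that was per condition. No difference below has a replicate check and no test across samples was possible, so no p-value is given.

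A proteoglycan is a core protein carrying glycosaminoglycan chains, long sugar polymers that bind water, growth factors and collagen. A chondroitin sulfate chain starts from a short linker of sugars on a serine of the core, after which N-acetylgalactosaminyltransferases add the first sugar of the chain itself, polymerases lengthen the chain and sulfotransferases decorate it. In the retina, proteoglycans fill the matrix between photoreceptors and the pigment epithelium, and versican is among its known components.

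Among cell-type markers, all 9 fibroblast markers were above background on both arrays. Of the 12 cone markers 7 were measured, while the cone opsin gene Opn1sw, the channel gene Cngb3 and the photoreceptor transcription factor gene Crx were well above background on neither array. Over the whole array 19816 of 29608 gene names were measured. The cone genes Opn1mw, Arr3 and Pde6h were measured but dim on both arrays. Among the 7 measured cone markers 1 was 2-fold or more higher without choline. Of all measured genes 7.67% were 2-fold or more higher and 3.88% were 2-fold or more lower. Muller glia markers had 5 of 8 measured and 3 higher, with Glul and Aqp4 within 2-fold and Sox2 and Kcnj10 above background on neither array. Macrophage markers had 5 of 5 measured and 1 higher, endothelial markers 2 of 4 measured and 0 higher, and pigment epithelium markers 0 of 4 measured. No measured marker of these lists had a value 2-fold or more lower, though the endothelial gene Kdr averages probes with log2 differences of -1.14 and -0.19. The cone gene Pde6c, above background only with choline, was at least 2.98-fold lower without it. Tek, an endothelial gene also above background only with choline, was 3.01-fold lower, a ratio to a signal not above background. Each bound here and below takes as floor the lowest level well above background on the other array. Array error is not subtracted, and some signals not above background exceed that floor, so the bounds are nominal. The cone gene Cnga3 and the glial gene Rlbp1 were above background only without choline, each at least 1.22-fold higher. Both arrays lay on the same slide, with 70.7% of non-control spots well above background on the choline-deficient array and 68.5% on the choline-sufficient array, and 0 saturated. Throughout, a level is the log2 of the scanner software's processed signal minus that of the array's 75th percentile, and a difference is the choline-deficient minus the choline-sufficient level. The value after ± is the software's error, propagated from both arrays. Variation from culture to culture is outside it. The median of this error over measured genes was 0.2042, and Chpf, the member with the highest signals, had 0.2040. For bright probes the error was thus nearly constant. A difference given in multiples of it is a size and not a significance. In a culture measured as bulk RNA, fewer cells of a type and less RNA per cell cannot be told apart.

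The array probes decide what each value stands for, so those on which the results turn are shown first, 5′ to 3′, in the sense of the transcript. Each is 60 bases long. The Dcn probe (chr10:96980233-96980292, plus strand, mm9) and the most upstream Vcan probe (chr13:89851810-89851869, minus strand) are printed whole. For the others, only the first 30 bases are given. The last line is a stretch common to both Chsy1 probes, and its capitals mark AATAAA, the hexamer of the polyadenylation signal.
Dcn: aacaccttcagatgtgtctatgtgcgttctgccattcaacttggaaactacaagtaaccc
Vcan, upstream probe: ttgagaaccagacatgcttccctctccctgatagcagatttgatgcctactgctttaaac
Vcan, middle probe: cggcaggctttaggttgtctatgtaaatga
Vcan, downstream probe: ttcatcctaatgtgtactagagcacagaaa
Fmod: ggcaagcgtggttttcaaaacatgagaaag
Csgalnact1: cccacagtgaactcattgttgaaatgcttc
Csgalnact2: taagcagagccagtatctcctttgtacaca
Chsy1, shared by both probes: cctattgcacactcgaacaAATAAAccagt

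The middle Vcan probe lies at chr13:89850072-89850131 and the downstream one at chr13:89795080-89795139, both on the minus strand, so the upstream and downstream probes are 56730 bases apart in the genome. The file assigns the upstream and middle probes to the transcript NM_172955 and the downstream probe to NM_001081249. The 2 Chsy1 probes (chr7:73318609-73318668 and chr7:73318625-73318684, plus strand) overlap by 44 bases and are not independent measurements. The remaining positions on mm9 are chr1:135943998-135944057 for Fmod, chr8:70880809-70880868 for Csgalnact1 and chr6:118057664-118057723 for Csgalnact2. No gene annotation of that build was used here, so each probe's place in exon or untranslated region is not stated.

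Of the 10 genes 9 were well above background on both arrays, and 3 of these 9, Csgalnact1, Fmod and Vcan, were higher by 2-fold or more when choline was withheld. None of the 9 was at least 2-fold lower. For comparison, 7.67% of all 19816 measured genes were 2-fold or more higher and 3.88% were 2-fold or more lower. Because the 10 genes were chosen with earlier results of these data known, this comparison describes them and tests nothing. Higher genes made up 66.4% of those 2-fold apart, 53.7% with scaling to the array medians and 85.6% with scaling to spike-in probes. The other 6 measured genes stayed within 2-fold. The median difference of the 9 was 0.42, beside -0.10 for all measured genes, and the genes differed widely among themselves, from -0.54 for Chpf to 3.62 for Csgalnact1. The 4 measured core genes had a median of 1.07, with 2 at least 2-fold higher, and the 5 enzyme genes one of 0.003, with 1 at least 2-fold higher. Collagen and mesenchymal genes used as fibroblast markers were also compared between the arrays. All 9 were measured, 6 were at least 2-fold higher and 0 lower, and their median difference was 1.79. Pdgfrb, Fap and Twist1 were under 2-fold. The log2 of the summed level was 6.34 on the choline-deficient and 3.41 on the choline-sufficient array, a sum over different probes in which Col1a2, at 5.96 and 2.87, had the highest levels. Muller glia markers had 3 of 5 measured genes at least 2-fold higher, 2 within 2-fold and 0 lower, with a median of 1.07. The part of either marker list in the results was not tested.

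**Figure D1:**
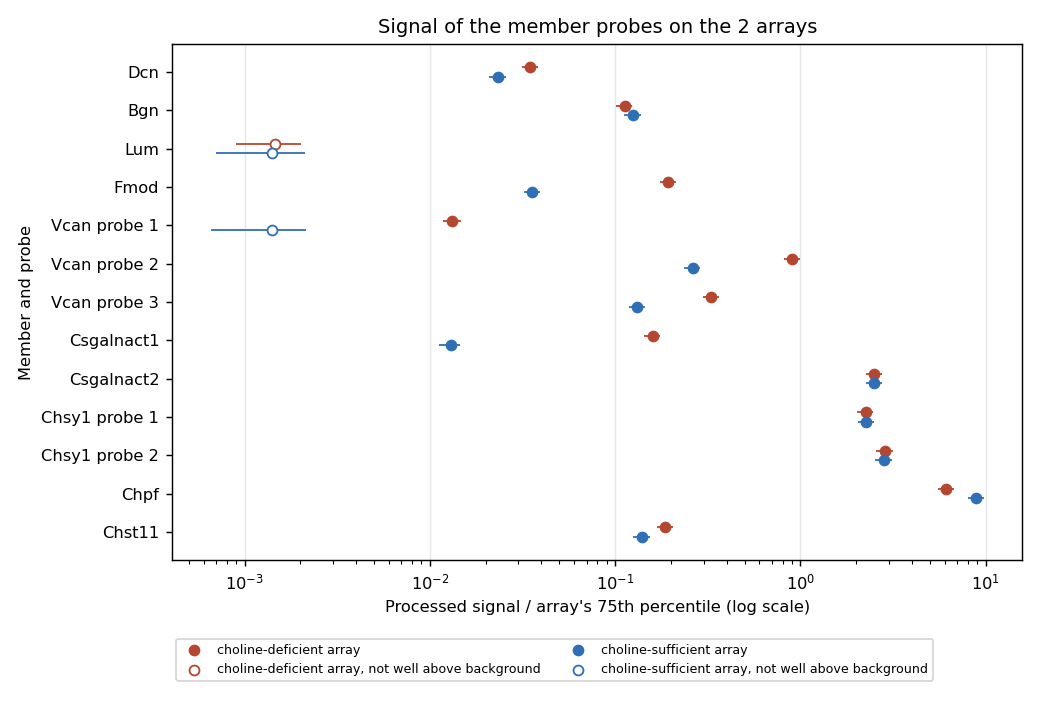
Processed signal of each probe divided by its array's 75th percentile, on a log axis, for the choline-deficient array (red) and the choline-sufficient array (blue); bars are the scanner software's error and open circles mark spots not well above background. Probes of different genes are not comparable in level; within a row, the arrays are far apart for Fmod, Vcan and Csgalnact1 and close for Bgn, Csgalnact2 and Chsy1. Vcan probes 1, 2 and 3 are the middle, downstream and upstream probe.

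The small leucine-rich proteoglycans are secreted cores that bind fibrillar collagen and govern how its fibrils grow. Fmod encodes fibromodulin, a keratan sulfate carrying member of this family that binds type I collagen (NM_021355). Its processed signal was 310.6 ± 31.1 on the choline-deficient array and 45.7 ± 4.65 on the choline-sufficient array. After scaling it was 5.41-fold higher without choline, a log2 difference of 2.43 ± 0.21, which placed it at rank 153 of 19816 genes from the highest difference. With normexp background correction, which adds an offset of 50 and so draws dim signals together, the difference was 1.61.

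Dcn encodes decorin, which carries 1 chondroitin or dermatan sulfate chain and binds collagen and transforming growth factor beta. Its signal was dim, 56.1 ± 5.71 without choline and 29.8 ± 3.17 with it. The scaled difference was 0.58 ± 0.21, which is 2.73 times its error, and it was 0.04 with normexp correction. Bgn encodes biglycan, the closest relative of decorin, and its probe lies at chrX:70738554-70738613 on the plus strand. Its signal was 181.2 ± 18.2 without and 159.3 ± 16.0 with choline. The scaled difference of -0.15 ± 0.20 was smaller than its error, and its interval of 2 errors ran from -0.55 to 0.26. With spike-in scaling it was 0.13, the opposite sign. Lum, which encodes the keratan sulfate proteoglycan lumican, had signals of 2.34 ± 0.89 and 1.81 ± 0.91 at chr10:97035210-97035269. Neither was well above background, so no fold is given. Within this family the difference of Fmod exceeded that of Dcn by 1.85 ± 0.30 and that of Bgn by 2.58 ± 0.29 on the log2 scale.

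Vcan encodes versican, a large chondroitin sulfate proteoglycan whose ends bind hyaluronan and cell surface ligands. The downstream probe gave signals of 1448 ± 145 without choline and 335 ± 33.5 with it, a scaled difference of 1.78 ± 0.20 or 3.44-fold. The upstream probe gave 531 ± 53.1 and 169 ± 16.9, a difference of 1.32 ± 0.20 or 2.50-fold. Both probes were thus higher on the choline-deficient array, and the gap between them, 0.46 ± 0.29, was 1.59 times its error. The gene's value, the mean of these 2 probes, was 1.55 ± 0.20, or 2.93-fold higher, at rank 638 of 19816. The middle probe was well above background only without choline, with signals of 21.3 ± 2.32 and 1.79 ± 0.95, so its difference is a lower bound of at least 3.98-fold higher. That bound sets the bright value against the lowest level of any probe well above background on the choline-sufficient array, -8.23. The middle probe is not part of the gene's value.

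Csgalnact1 and Csgalnact2 encode the N-acetylgalactosaminyltransferases that start a chondroitin chain on its linker. Csgalnact1 (NM_001364256) had a signal of 256 ± 25.6 on the choline-deficient array and 16.5 ± 2.13 on the choline-sufficient array. It was 12.3-fold higher without choline, a log2 difference of 3.62 ± 0.24, which is 15.4 times its error and rank 13 of 19816 genes. The choline-sufficient level of -6.27 is dim, and normexp correction gave a difference of 1.58, still at least 2-fold. Csgalnact2 (NM_030165) was bright on both arrays, with signals of 4038 ± 404 and 3206 ± 321. Its scaled difference was 0.002 ± 0.20, with an interval of 2 errors from -0.41 to 0.41, so a shift of up to 1.33-fold either way is within the array error. Over the alternatives it ran from -0.14 to 0.27. The differences of these enzyme genes were 3.62 ± 0.31 apart. Each is measured by 1 probe.

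Chsy1 encodes chondroitin sulfate synthase 1, the polymerase that alternates the sugars of the chain. Its probes gave 3621 ± 362 and 4593 ± 459 without choline, and 2903 ± 290 and 3610 ± 361 with it. The scaled differences of the probes were -0.01 and 0.02, and the gene's value was 0.003 ± 0.20. Over the alternatives it ran from -0.12 to 0.27. Chpf encodes the chondroitin polymerizing factor, the partner that gives the synthase its polymerase activity, and its probe lies at chr1:75471198-75471257 on the minus strand. Its signal was 9838 ± 984 without and 11352 ± 1135 with choline. The difference of -0.54 ± 0.20, or 1.45-fold lower, was 2.63 times its error and the lowest of the 9 measured genes. It was below 0 under every alternative, from -0.66 to -0.27. Chst11 encodes a sulfotransferase acting on the N-acetylgalactosamine of chondroitin, with its probe at chr10:82658397-82658456 on the plus strand. Its signals were 299 ± 29.9 and 178 ± 17.9, and the difference of 0.42 ± 0.20, or 1.33-fold higher, was 2.03 times its error. It was above 0 under the alternatives that gave it a value, from 0.24 to 0.69. The polymerase genes and Csgalnact2 therefore lay within 2-fold, as did the sulfotransferase gene, while Csgalnact1 did not.

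**Figure D2:**
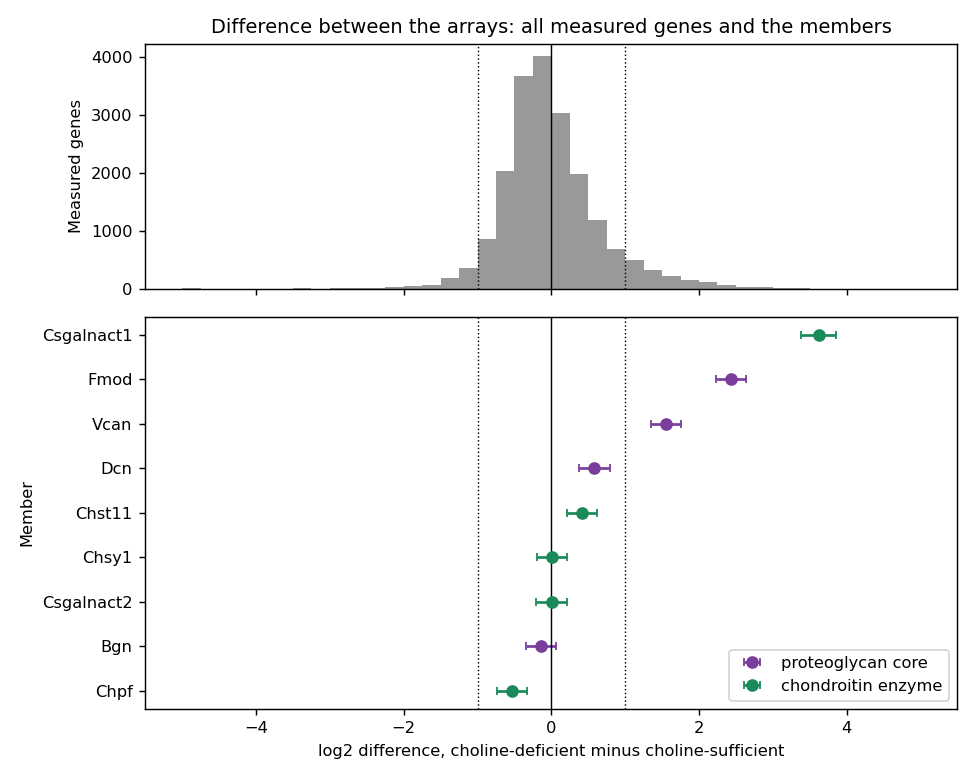
Top, histogram of the log2 difference (choline-deficient minus choline-sufficient) over the 19816 measured genes, with values beyond the axis range put in the end bins; bottom, the 9 measured genes with the scanner software's error as bars, cores in purple and enzymes in green. Dotted lines mark 2-fold; Csgalnact1, Fmod and Vcan lie beyond the upper line and the other 6 between the lines.

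The differences of genes in the same matrix and chain pathways were read from 11 lists written with earlier results of these data known. Of their 118 genes 95 were measured, 24 at least 2-fold higher without choline and 2 lower, with a median of 0.33, where 7.67% and 3.88% of all measured genes passed in these directions. The counts were 18 and 3 with scaling to the array medians, 34 and 1 with spike-in scaling and 14 and 2 with normexp correction. With median scaling Cd44, Cspg4, Sdc4, Uap1, Adamts5 and Bmp1 were under 2-fold, and with spike-in scaling Hexa was. Among other small leucine-rich proteoglycans, 3 of 8 measured genes were higher by at least 2-fold and 0 lower. They were Podnl1 at 6.65-fold, Omd, the gene of osteomodulin, at 5.36-fold and Ogn, the gene of osteoglycin, at 2.92-fold. Aspn, Kera and Epyc were well above background on neither array. Prelp was so only without choline, at least 1.73-fold higher, and Nyx, which encodes nyctalopin of the retina, only with choline, at least 14.9-fold lower without it. The other 5 measured genes of this list were within 2-fold, and the list median was 0.34.

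The hyaluronan synthase gene Has2, whose product makes the polymer that versican binds, was 6.55-fold higher. The hyaluronan receptor gene Cd44 was 2.11-fold higher over 4 probes, whose differences ran from 0.90 to 1.29. The other 4 measured genes of this list, among them the aggrecan gene Acan and the neurocan gene Ncan, were within 2-fold, and the list median was -0.001. The link protein genes Hapln1 and Hapln2 and the synthase gene Has1 were well above background on neither array. Bcan and Hapln4 were above background only with choline. Hapln4 was at least 1.72-fold lower without it. Among further chondroitin sulfate carriers, 3 of 6 measured genes were at least 2-fold higher: Tgfbr3, the betaglycan gene, at 2.89-fold, Ptprz1, which encodes a receptor phosphatase, at 2.83-fold and Cspg4, the NG2 gene, at 2.07-fold. Spock2 was above background only with choline, at least 1.55-fold lower without it, and Spock3 and Esm1 on neither array. The list median was 0.59. With normexp correction 1 of these 6 genes passed 2-fold, and with spike-in scaling 3 did. Of the 10 measured heparan sulfate cores 4 were at least 2-fold higher, Gpc6 at 2.36-fold and the syndecan genes Sdc3, Sdc2 and Sdc4 at 2.24-fold, 2.18-fold and 2.01-fold, with a list median of 0.85. For these cores 1 of the 10 passed 2-fold with normexp correction and 6 did with spike-in scaling. Gpc2 and Gpc3 were above background on neither array.

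The lists of steps around the chondroitin enzymes are given next. None of the 7 measured linker enzyme genes had a value at least 2-fold apart, and their median was 0.52. The value of the xylosyltransferase gene Xylt1, 0.56, averages 2 probes of opposite sign, at -0.34 and 1.46, and the probes of Fam20b also had opposite signs, at -0.11 and 0.43. With spike-in scaling 2 of the 7 linker genes passed 2-fold, and with normexp correction 0 did. Of the other chain polymerase genes Chpf2 was measured, at -0.37 ± 0.20. Its 3 probes ran from -1.09 to 0.01, a spread that the array error does not cover. Chsy3 was above background on neither array. Of the 9 other chondroitin and dermatan sulfotransferase and epimerase genes, all measured, 1 was at least 2-fold higher. It was Chst12, which encodes another chondroitin sulfotransferase, at 2.23-fold, and the list median was 0.78. With spike-in scaling 5 of these 9 passed 2-fold, and with normexp correction 1 did. Donor supply had 3 of 13 measured genes at least 2-fold higher. Among them were the sulfate donor synthase gene Papss2 at 3.26-fold and Uap1 at 2.06-fold, and the list median was 0.27. The 2 Uap1 probes had differences of 0.77 and 1.31. In the breakdown list Hexa, encoding a lysosomal hexosaminidase subunit, was 2.04-fold lower. No other of the 11 measured genes was 2-fold apart, with a median of -0.20. The probes of Gusb had opposite signs, at -0.47 and 0.27, as did those of Idua, at -0.44 and 0.58. Cemip was above background only without choline, at least 1.97-fold higher, and Spam1 on neither array.

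The heparan sulfate enzymes, which share the linker with chondroitin, spanned the widest range of these lists. Of its 16 measured members, 5 were 2-fold or more higher and 1 lower, with a median of 0.36. Ndst3, an N-deacetylase and N-sulfotransferase gene, was 9.03-fold higher, the endosulfatase genes Sulf1 and Sulf2 were 4.72-fold and 4.36-fold higher, the sulfotransferase gene Hs3st3a1 3.80-fold and the polymerase gene Ext1 3.16-fold. Extl1 was 5.93-fold lower. Ndst4, Hs3st2, Hs3st3b1 and Hs6st3 were above background on neither array. Among proteases that cut proteoglycan cores, 3 of 8 measured genes were at least 2-fold higher, with a list median of 0.57. They were Mmp2 at 3.19-fold, Bmp1 at 2.16-fold and the aggrecanase gene Adamts5 at 2.07-fold. Bmp1 and Adamts5 each average 3 probes. Their probe differences ran from 0.53 to 1.62 and from 0.78 to 1.24, so not every probe reached 2-fold. Adamts20 was above background on neither array. With normexp correction 1 of the 8 measured protease genes passed 2-fold, and with spike-in scaling 3 did.

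**Figure D3:**
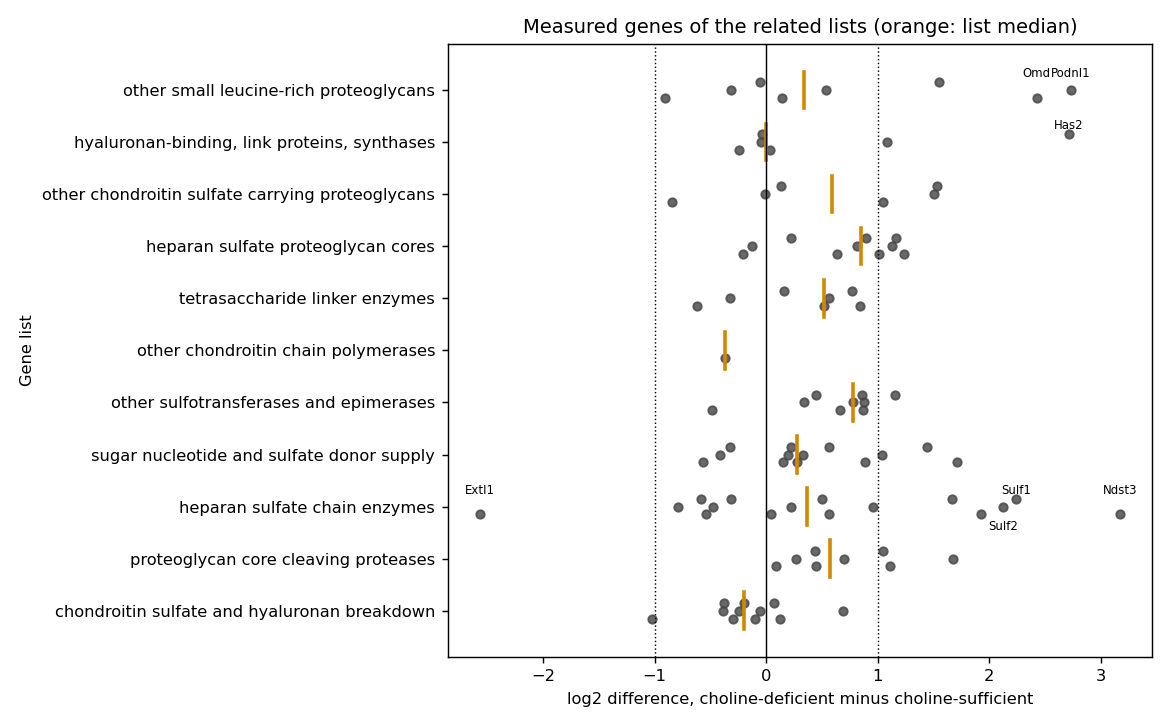
Each point is a measured gene of a related list, placed by its log2 difference (choline-deficient minus choline-sufficient); orange bars are list medians, dotted lines mark 2-fold, and genes 4-fold or more apart are named. Has2, Podnl1, Omd, Sulf1, Sulf2 and Ndst3 lie far to the right and Extl1 far to the left, while at this scaling no linker enzyme passes a dotted line.

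Of the members at least 2-fold higher, RefSeq promoter windows were at hand for Fmod and Vcan, and for 7 of the 10 genes in all. The 250 bases before the start are printed on build GRCm38.p6, in the sense of the gene, Fmod at chr1:134037004-134037253 and Vcan at chr13:89742513-89742762. They are shown because these cores had the largest differences among the cores.
Fmod: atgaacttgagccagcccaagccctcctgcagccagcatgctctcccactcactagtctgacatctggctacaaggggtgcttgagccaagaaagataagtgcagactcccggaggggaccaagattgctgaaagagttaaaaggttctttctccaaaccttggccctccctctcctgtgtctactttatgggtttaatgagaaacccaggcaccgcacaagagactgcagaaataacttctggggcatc
Vcan: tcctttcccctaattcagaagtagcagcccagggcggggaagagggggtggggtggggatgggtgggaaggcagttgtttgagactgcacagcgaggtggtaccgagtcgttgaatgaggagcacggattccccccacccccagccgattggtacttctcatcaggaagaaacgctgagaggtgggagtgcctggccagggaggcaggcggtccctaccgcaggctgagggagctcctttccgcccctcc
Both strands of each window were searched for ACGTG, the core motif of hypoxia-inducible factors, TGANTCA, the AP-1 motif, and TATAAA. The 3 motifs were held by 16.6%, 6.7% and 12.4% of all 32851 promoter windows of that length. Neither printed window held any of them, hence the absence of capitals. Of the 8 windows of the 7 genes, ACGTG was found in 2, those of Chsy1 and Chst11, and TGANTCA in 1, of Csgalnact2. A missing match says only that these letters are not in this window.

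**Figure D4:**
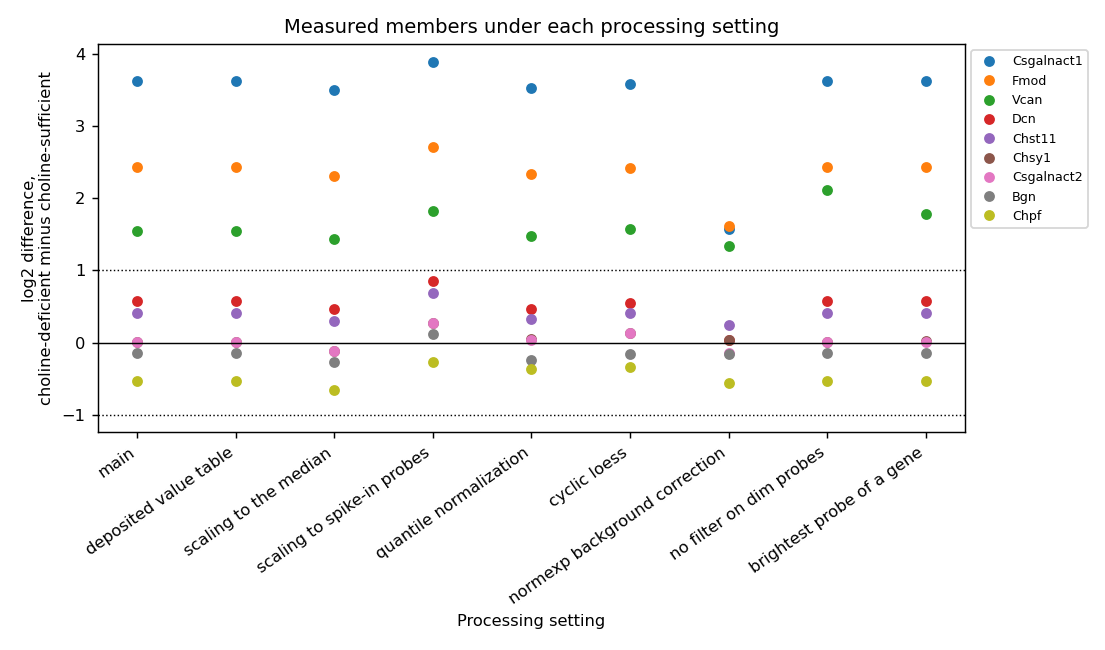
Each point is the log2 difference (choline-deficient minus choline-sufficient) of a measured gene under a processing setting; dotted lines mark 2-fold. Csgalnact1, Fmod and Vcan stay above the upper line in every setting drawn (with no filter, the Vcan point rests in part on a signal not above background), Csgalnact1 falling to 1.58 with normexp background correction, and Bgn turns from -0.15 to 0.13 with spike-in scaling.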

How the data were processed

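RNA of 661W cells, 200 ng per array, was hybridised as Cy3-labelled product to Agilent arrays, per the labels' protocols. The submitters' processing notes name Agilent Feature Extraction 12.1.1.1 as the software behind the deposited files, which hold spot intensity. By their headers, the processed intensities are background-subtracted and detrended within the array and not normalized between arrays, and probe positions are on mm9. The deposited matrix gives a linear ratio, in which each processed signal is divided by 1609 (choline-deficient) or 1280 (choline-sufficient), that is, by the 75th percentile of the array. Its genes are not centred, its direction is that of the scanner values, and its medians were 0.036 and 0.034. No source here describes how the authors made it.

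Log2 processed signals were set relative to the 75th percentile of the non-control spots of their array. Control and outlier spots (92 and 86) were left out, and spots of a probe were averaged. A probe was measured when well above background and unsaturated on both arrays (26461 of 39426), and a gene's value and error are means over its measured probes. Genes were counted at 2-fold, a size and not a test. Spot noise was small: over 268 probes with at least 8 spots, the SD of the difference was 0.05 in the median. With 1 array per group, the number of arrays sets the precision. All 10 members were named, with every list gene at least 2-fold apart and over 2 errors, up to 6 per list, and up to 6 genes of a list above background on 1 or neither array; 1 gene that this rule names is not reported here. The members and lists were chosen with earlier results of these data known. A planned description of protein sequences was not done, as no protein table was used here. Promoter windows were added after the data were seen. Tools were R 4.3.3, limma 3.58.1, version 1.17.8 of the data.table package, Python 3.11.15, numpy 2.4.6, pandas 2.3.3 and matplotlib 3.10.9. The counting was tested on simulated data.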

Additional observations from a re-analysis of the deposited data

How the results depend on the processing

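The count of 3 genes at least 2-fold higher and 0 lower was the same with scaling to the median, spike-in scaling, no filter on dim probes (where the Vcan value rests in part on a signal not above background), the deposited matrix, normexp correction, quantile normalization, cyclic loess, the brightest probe, a size of 1.5-fold and a size over 2 errors. At 3-fold it was 2, since Vcan was at 2.93-fold. With only the brighter measured probes 4 of the genes were left, of which 1 was higher, because Fmod, Csgalnact1, Dcn, Bgn and Chst11 no longer had a value. The median difference of the genes, 0.42, was 0.69 with spike-in scaling, 0.037 with normexp correction and 0.0023 with the brighter probes. Among 19816 measured genes, 1520 higher and 769 lower ones passed 2-fold. These counts were 2292 and 385 with spike-in scaling and 742 and 421 with normexp correction. For the related lists, 24 higher and 2 lower genes became 14 higher with normexp correction, and 1 lower with spike-in scaling, quantile normalization or cyclic loess, alternatives chosen after seeing the data. All genes shifted by -0.12 with median and 0.27 with spike-in scaling, so every difference given here moves by the same constant. The cause of the other changes was not tested. No paired analysis was possible because each group has 1 array and the labels give no replicate numbers. Dim signals limit Lum, Dcn, the middle Vcan probe and the choline-sufficient values of Csgalnact1 and Fmod.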
